A study of Salmo salar with 58 samples.

Results

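The genes described here are 5 hox genes of the middle paralog groups of Atlantic salmon (Salmo salar): hxb7a (GeneID 100195881), hoxb7ab (100196645), hoxb8ab (100194489), hoxc6ba (100196638) and hoxa7aa (100194471). They were chosen by their NCBI gene symbol and are 5 of the 26239 genes with values in the file, and 5 of its 16 genes with a hox symbol. Each was read in every one of 10 groups of libraries, and library by library in the intestine. The groups are distal intestine and liver from fish given the low or the high dose of enniatin B, the low or the high dose of beauvericin, or neither toxin (control), all sampled 12 h into an acute exposure in vivo. Both toxins are cyclic depsipeptides made by Fusarium moulds that grow on the cereals of fish feed. Amounts are not given beyond the words low and high. Each tissue has 29 libraries: 5 after low beauvericin and 6 in each of the other groups. It is not stated whether each replicate is its own fish, so p-values measure the spread between libraries.

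Hox genes encode homeodomain transcription factors that tell cells of the embryo where they lie between head and tail. The genes stand in clusters, and their order along a cluster follows the order of the body levels at which they are switched on: low paralog numbers act toward the head and high numbers toward the tail. In vertebrate guts the same order is kept along the tube, and part of it persists in adult connective tissue, muscle and nerve cells. Fish carry additional hox clusters from genome duplications, and salmon another round, so that most of these genes have a close copy.

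Members of the family differ in what they are known for. In mouse, the anterior limit of Hoxc6 marks the start of the thorax. Hoxb7 is expressed in the duct that forms the kidney's collecting system in the mouse, and forced Hoxb8 keeps mouse myeloid progenitors dividing. HOXA7 is among the genes raised in human leukaemias with rearranged MLL. By neighbour relations in the reference assembly Ssal_v3.1, hxb7a lies between hoxb6aa and hoxb8aa, and hoxb7ab and hoxb8ab lie next to each other in the duplicate of that cluster. hoxc6ba lies next to hoxc5ba, and hoxa7aa stands before hoxa10ab and hoxa11ab. A long noncoding RNA gene overlaps hoxa7aa, and it is not stated whether counting used strand, so reads of the pair cannot be told apart. The hoxb7 genes hxb7a and hoxb7ab are duplicate copies, and how reads common to both were assigned is not stated, so their separate values are uncertain to that extent.

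Values are normalized counts, that is reads per gene divided by a factor for each library. They compare one gene between libraries and do not compare genes with each other, because they are not per length. Libraries held 23.3 to 40.6 M assigned reads in intestine and 30.7 to 61.7 M in liver, and 1 read was worth 0.54 to 0.9 normalized counts in intestine and 0.848 to 1.84 in liver. Tissue markers went with the labels except in intestine controls 5 and 6. The 6 measured of 13 hepatocyte markers summed to 4.52 to 72.9 in intestine libraries. The 11 measured of 15 enterocyte markers summed to 1232 and 2015 in controls 5 and 6, against 105300 to 851600 in the other 27 intestine libraries, and among them slc6a19, an amino acid transporter of the brush border, was at 0 in both. The sum does not part the tissues, at 77460 to 507900 in liver, where apoa1 makes up most of it; slc6a19 was at 0 to 1.69 in liver. The 2 measured of 13 smooth muscle markers summed to 232000 and 301800 in those controls, against 32200 to 127900 in the other 27. Replicate 3 of low enniatin B held the lowest enterocyte sum of the 27, though not all its markers were low. npc1l1, apoa1, vil1, abcg8, fabp2, at 60.9, and slc15a1, at 9.71, were the lowest of the 27. cubn, at 47460, was the highest, and slc6a19, slc5a1 and abcg5 lay between. cdx1b, at 3915, lay within the 2787 to 5034 of the 27. Changes of the members in intestine are therefore given with all 6 controls and with controls 1 to 4.

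In every treatment the middle hox genes had higher values in intestine than in liver. hxb7a averaged 98.9 normalized counts in intestine and 26.8 in liver over 29 libraries each. hoxb7ab averaged 88.0 in intestine and 11.2 in liver, and hoxa7aa averaged 161 in intestine and 8.44 in liver. hoxb8ab averaged 95.1 in intestine and 2.48 in liver. hoxc6ba averaged 90.3 in intestine and 0.293 in liver. The order of liver levels relative to intestine thus ran from hxb7a, which was read in all 29 liver libraries, to hoxc6ba, which was at 0 in 26 of them. Because whole tissue was sequenced, fewer cells of a type and less RNA per cell cannot be told apart.

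The 3 members with enough reads in both tissues to be tested were hxb7a, hoxb7ab and hoxa7aa. All 3 were called higher in intestine than in liver in all 5 treatments by limma, a linear model fitted over all genes on log2(value + 2), at a Benjamini-Hochberg adjusted p under 0.05. Calls were the rule between these tissues. The share of all genes called was 67.9% in low enniatin B, 67.7% in high enniatin B, 66.0% in low beauvericin, 69.5% in high beauvericin and 66.3% in control, and the share called higher in intestine was 36.3, 36.3, 35.5, 37 and 35.2% in the same order. For hxb7a the log2 difference, intestine minus liver, lay between 1.69 in high enniatin B and 2.29 in control (SE 0.238 in each). For hoxb7ab it lay between 2.48 ± 0.45 in low beauvericin and 3.09 ± 0.41 in high enniatin B. For hoxa7aa it was 3.998 ± 0.58 in low enniatin B, 4.69 ± 0.58 in high enniatin B, 4.98 ± 0.63 in low beauvericin, 3.95 ± 0.58 in high beauvericin and 2.19 ± 0.58 in control (adjusted p = 8.67e-04 for the last). Without controls 5 and 6 the control difference of hoxa7aa was 3.39 ± 0.53. With all controls, its call in control was lost under voom (2.66, adjusted p = 0.077).

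hoxb8ab and hoxc6ba did not pass the filter on low values in liver (10 or more in at least 5 libraries), so the 3 tested genes are not all members. With no further filter all 5 were called higher in intestine in each treatment, as were 38.1% of all genes in low enniatin B, 38.1% in high enniatin B, 37.4% in low beauvericin, 38.8% in high beauvericin and 37% in control. The lowest mean value of a gene in the file, over all libraries, is 21.1. A gene below that mean in liver is in the file only with a higher intestine mean. This holds for hoxb7ab, hoxb8ab, hoxc6ba and hoxa7aa, so the direction of their calls, with or without the filter, was largely set in advance. In liver hoxb8ab was at 0 in 12 of 29 libraries, with 50 reads in all, and its highest value was 9.26. Its lowest value in intestine, 3.89 in replicate 3 of low enniatin B, lay within the liver range, and control 6, at 7.20, did too. Over all treatments the other members overlapped between the tissues as well, with their lowest intestine value in control 6. For hxb7a the lowest intestine and highest liver values were 45.9 and 61.1, and for hoxb7ab 12.6 and 34.4. For hoxc6ba they were 0.900 and 3.68, and for hoxa7aa 2.70 and 26.1. hoxc6ba gave 6 liver reads in all, 2 in each of 3 libraries. Against a floor of 3 reads a library, its mean was at least 17.1-fold higher in intestine than in liver in low enniatin B and at least 12.4-fold higher in control, the treatments in which every liver library was at 0. These bounds cover counting error only.

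**Figure D1:**
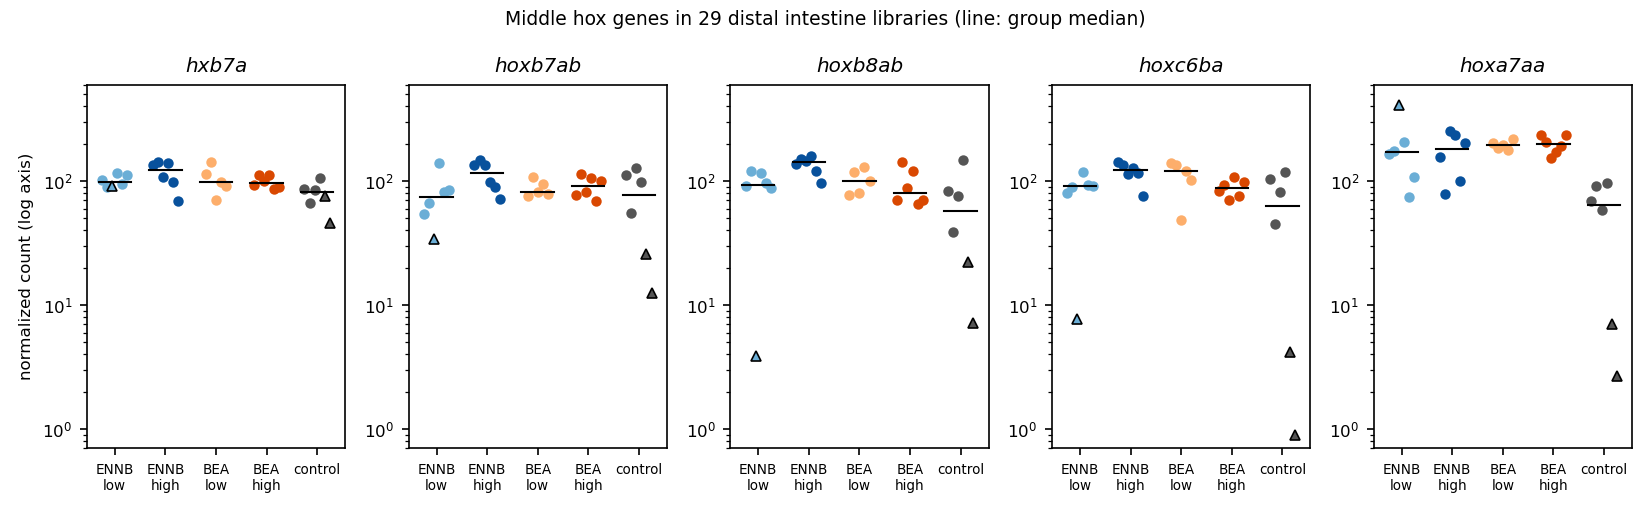
Normalized count (log axis) of the 5 middle hox genes in each of 29 distal intestine libraries, by treatment; lines are group medians and triangles are controls 5 and 6 and replicate 3 of low enniatin B. hoxa7aa lies below 96 in all 6 controls and at 154 or more in every beauvericin library, while hxb7a spans 45.9 to 142 over all groups.

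hoxa7aa was the member with the largest estimated change between exposed and control intestine in all 4 exposures. In intestine after low enniatin B it had 166, 176, 412, 207, 74.9 and 107 normalized counts, and after high enniatin B 156, 78.1, 254, 236, 100.5 and 204. After low beauvericin it had 202, 183, 195.5, 179 and 216, and after high beauvericin 233, 206, 154, 171, 191 and 233. The controls had 68.5, 91.4, 58.8, 95.6, 7.01 and 2.70. Every beauvericin library lay above every control, and so did 5 of 6 libraries of each enniatin B group. All 23 exposed libraries lay above the control median of 63.6. Without controls 5 and 6 the control median was 79.9. The libraries at 74.9 after low enniatin B and at 78.1 after high enniatin B lay below that. The shares of all genes with 5 of 6 libraries above every control, or all 23 above the control median, were not computed.

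Means of hoxa7aa were 191 ± 119 in low enniatin B, 171 ± 72.2 in high enniatin B, 195 ± 15.1 in low beauvericin, 198 ± 32.5 in high beauvericin and 54 ± 40.5 in control (SD; n = 6, 6, 5, 6 and 6). The 4 exposed means stood within their spread of each other. Of all genes tested in intestine, the share with every exposed library above every control was 0.516% for low beauvericin, 0.0859% for high beauvericin, 0.0937% for low enniatin B and 0.172% for high enniatin B. In the enniatin B groups hoxa7aa did not reach this mark. The log2 change against control was 2.28 ± 0.56 after low enniatin B (adjusted p = 0.196, limma), 2.21 ± 0.56 after high enniatin B (0.2), 2.52 ± 0.58 after low beauvericin (0.136) and 2.53 ± 0.56 after high beauvericin (0.27). None passed the threshold over 25601 genes. The 4 comparisons share their control libraries.

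Part of the size of the hoxa7aa difference rested on controls 5 and 6, which had 10 and 3 reads of it. With controls 1 to 4 alone the log2 change was 1.08 ± 0.33 after low enniatin B, 1.01 ± 0.33 after high enniatin B, 1.32 ± 0.34 after low beauvericin and 1.32 ± 0.33 after high beauvericin (adjusted p = 0.483 to 0.748, limma), and leaving out replicate 3 of low enniatin B too, the first was 0.82 ± 0.29. The 95% intervals of all 5 estimates lay above 0, the lowest bound being 0.222. Enterocyte and smooth muscle markers stood apart in the same controls, and their part in the result was not tested.

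Of the tests on the recovered reads, DESeq2 and edgeR called hoxa7aa in more comparisons than limma, and voom did not. DESeq2 called it higher in all 4, with log2 changes of 1.81 after low enniatin B (adjusted p = 0.0079), 1.65 after high enniatin B (0.019), 1.84 after low beauvericin (0.011) and 1.88 after high beauvericin (0.0053). It called 6.15, 5.5, 6.27 and 5.09% of all genes in those comparisons. edgeR called it after low enniatin B (1.80, adjusted p = 0.049) and high beauvericin (1.87, adjusted p = 0.045), where it called 2.46 and 2.12% of all genes. It did not call it after high enniatin B (2.22% of genes called) or low beauvericin (1.45%). voom called hoxa7aa in no comparison, with a log2 change of 2.51 after high beauvericin (adjusted p = 0.31). Of all genes voom called 0, 0, 0.00391 and 0% after low and high enniatin B and low and high beauvericin. limma called hoxa7aa in all 4 comparisons when control 4 was left out (adjusted p = 0.016 to 0.045), and after low beauvericin when control 1 was left out (0.047). Control 4 held the highest control value of hoxa7aa, 95.6, and leaving it out gives controls 5 and 6 more weight. With controls 5 and 6 left out instead, limma called hoxa7aa in none. Without control 4 the same fit called 2.37% of all genes after low enniatin B, 5.91% after high enniatin B, 4.17% after low beauvericin and 0.0898% after high beauvericin, and without control 1 it called 0.391% after low beauvericin, 0.00781% after low enniatin B, 0.0% after high enniatin B and 0.00391% after high beauvericin.

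The other 4 members lay higher on average in exposed than in control intestine, by less than hoxa7aa, and none was called. Over all genes limma called 0.0% after low enniatin B, 0.0% after high enniatin B, 0.0156% after low beauvericin and 0.00391% after high beauvericin. At an unadjusted p under 0.05, with hoxa7aa included, 2 of 5 members passed after low enniatin B, 5 after high enniatin B, 3 after low beauvericin and 2 after high beauvericin. Of all genes, 17.5, 17.7, 18.7 and 16.9% passed that mark in the same order. Neither edgeR nor DESeq2 called a member other than hoxa7aa. The median log2 change of the 5 members was 0.49 after low enniatin B, 1.56 after high enniatin B, 1.15 after low beauvericin and 0.99 after high beauvericin. Over all genes the median lay between 0.0095 and 0.0144. With controls 1 to 4 the medians of the members were -0.31, 0.49, 0.31 and 0.19 in the same order of exposures.

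hoxc6ba had 80.4, 90.3, 7.77, 118.8, 92.1 and 90.9 normalized counts after low enniatin B and 143, 134, 113, 129, 117 and 75.1 after high enniatin B. It had 139, 134, 48.5, 119.7 and 103 after low beauvericin and 82.5, 93.6, 70.3, 108, 75.8 and 98.4 after high beauvericin. Its controls had 104.5, 44.99, 81.9, 118, 4.205 and 0.900. The groups overlap, and the lowest values belong to controls 5 and 6 and to replicate 3 of low enniatin B. The log2 changes were 1.07 ± 0.70, 1.92 ± 0.70, 1.74 ± 0.73 and 1.52 ± 0.70 for low and high enniatin B and low and high beauvericin (adjusted p = 0.422, 0.2, 0.215 and 0.284, limma). With controls 1 to 4 alone they were -0.37 ± 0.46, 0.49 ± 0.46, 0.31 ± 0.48 and 0.08 ± 0.46 in the same order, and leaving out replicate 3 of low enniatin B too, the first was 0.18 ± 0.27. hoxc6ba was called by limma after high enniatin B when control 4, the highest of its controls, was left out (2.31, adjusted p = 0.049).

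hoxb8ab had its highest median, 141, after high enniatin B, where the lowest library had 96.1 and the highest 158. After low enniatin B the lowest, median and highest values were 3.89, 93.6 and 121, after low beauvericin the 5 values were 77.7, 119, 79.9, 128.6 and 99.5, and after high beauvericin the 3 marks were 65.5, 79.7 and 141. The controls had 82.7, 38.7, 75.1, 148.5, 22.4 and 7.20, so that control 4 lay among the highest libraries and controls 5 and 6 among the lowest. The log2 change was largest after high enniatin B, at 1.56 ± 0.58 (adjusted p = 0.203, limma), and 0.76 ± 0.55 with controls 1 to 4. After low beauvericin it was 1.15 ± 0.61 with 6 controls and 0.34 ± 0.58 with 4, and after high beauvericin 0.99 ± 0.58 with 6 and 0.19 ± 0.55 with 4. After low enniatin B it was 0.49 ± 0.58, and the sign turned with controls 1 to 4, at -0.31 ± 0.55, and was 0.38 ± 0.27 with replicate 3 of low enniatin B left out too.

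The duplicate pair hxb7a and hoxb7ab varied less. hxb7a ranged over 90.3 to 116 after low enniatin B, 69.1 to 141 after high enniatin B, 70.6 to 142 after low beauvericin and 86.0 to 112 after high beauvericin, and its controls had 86.2, 66.1, 85.3, 105.0, 76.4 and 45.9. Its log2 changes were 0.41 ± 0.18, 0.56 ± 0.18, 0.41 ± 0.19 and 0.37 ± 0.18 (adjusted p = 0.254, 0.2, 0.255 and 0.301, limma) in that order of groups. With controls 1 to 4 they were 0.25, 0.40, 0.24 and 0.21 (SE 0.186 to 0.194). Control 5, at 76.4, lay within the range of the other 26 libraries for this gene, unlike for the other 4 members. Without control 4, the highest of its controls, limma called hxb7a after high enniatin B (0.66, adjusted p = 0.04).

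hoxb7ab ranged over 34.3 to 139.9 after low enniatin B, 71.8 to 147 after high enniatin B, 75.5 to 108 after low beauvericin and 69.3 to 115 after high beauvericin. Its controls had 112, 54.8, 127, 98.3, 25.9 and 12.6. The log2 change of 0.35 ± 0.39 after low enniatin B became -0.40 ± 0.28 with controls 1 to 4, and -0.04 without control 6 alone. The changes of 0.65 ± 0.40 after low beauvericin and 0.69 ± 0.39 after high beauvericin became -0.10 ± 0.29 and -0.06 ± 0.28 with controls 1 to 4. After high enniatin B it was 0.97 ± 0.39 with all controls and 0.22 ± 0.28 with 4.

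**Figure D2:**
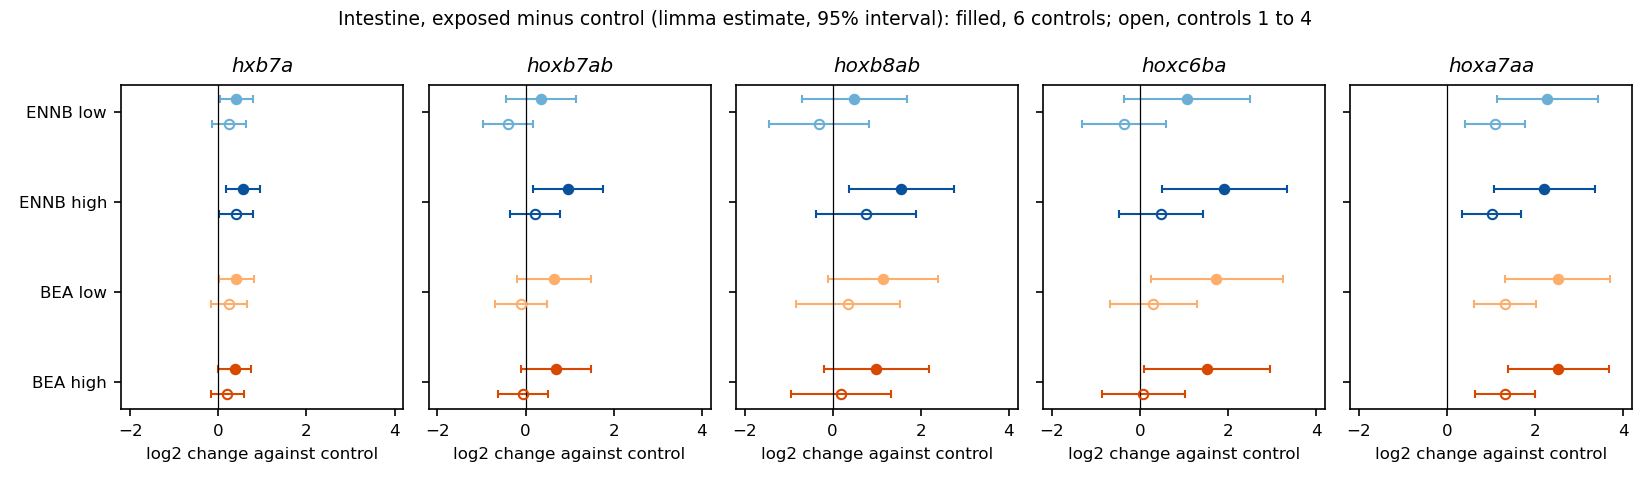
Limma log2 change (log2 of value + 2) of each member in exposed minus control intestine with its 95% interval; filled points use 6 controls and open points controls 1 to 4. hoxa7aa stays above 0 in both (1.01 to 1.32 with controls 1 to 4), whereas hoxb7ab lies at or below 0 in 3 of 4 comparisons without controls 5 and 6.

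Controls 5 and 6 and replicate 3 of low enniatin B lay outside the range of the remaining 26 intestine libraries in many hox genes; hoxc5ba, hoxc6ba, hoxb7ab and hoxb8ab were below it in all 3, and hoxa7aa and hoxa11ab were below it in the controls and above it in the other library. In control 6 all 5 members lay below the lowest of the 26, and in control 5 all but hxb7a did. Control 5 held 6 reads of hoxc6ba and control 6 held 1, where the 26 libraries ranged over 44.99 to 143 normalized counts. hoxc5ba, the neighbour of hoxc6ba, had 12.6 and 14.4 normalized counts in controls 5 and 6, against 116 to 223. On the other side stood 3 anterior hox genes: hoxa2aa, at 553 and 422, hoxa2ab, at 208 and 239, and hoxb3a, at 839.7 and 679.6, lay above all 26 in both controls. The anterior genes hoxa3a and hoxa3ab lay within the range in both. The middle gene hoxa5a, at 239.7, and the posterior gene hoxc10ab, at 123.4, lay above all 26 in control 5 and within the range in control 6. The split therefore did not follow the paralog groups throughout. Of the genes tested in intestine, 26.4% lay below all 26 in control 5 and 28.8% in control 6, and 26 and 26.4% lay above.

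Replicate 3 of low enniatin B had a mixed profile. Its hoxb8ab, hoxc6ba and hoxb7ab values, at 3.89, 7.77 and 34.3, lay below all 26 libraries, while hoxa7aa at 412 and hoxa11ab at 232 lay above all 26. hxb7a, at 91.3, was near the median of 99.1. In this library 13% of all genes lay below the 26 and 12% above. The labels give no position of sampling along the gut, so its part in these values was not tested.

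**Figure D3:**
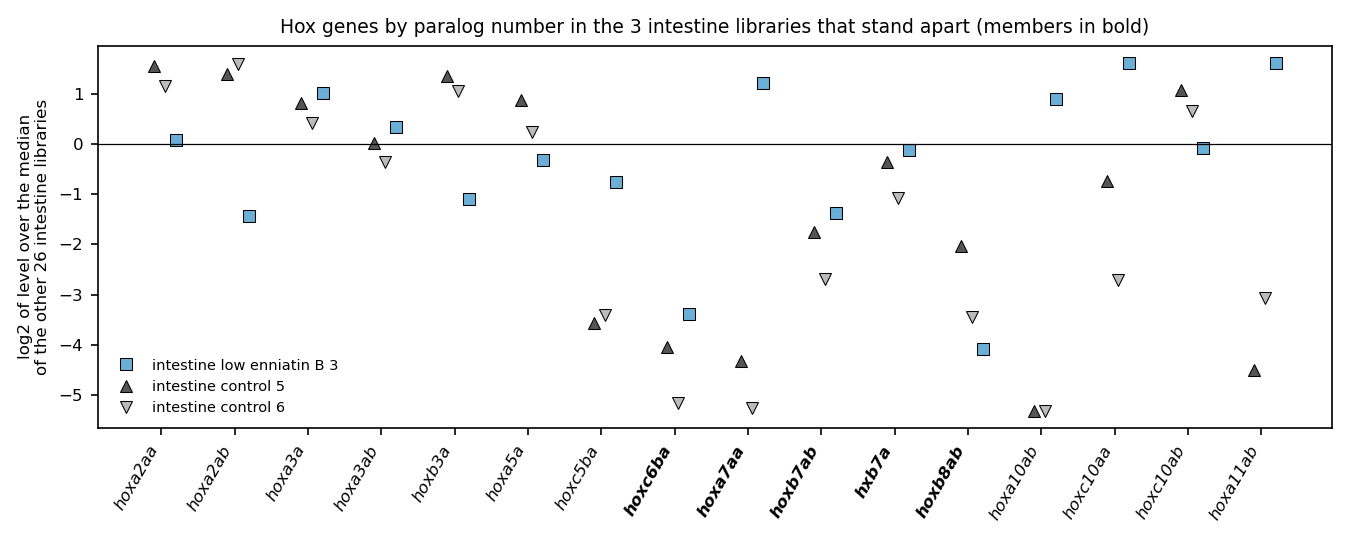
Log2 of the level of each of the 16 hox genes over its median in the other 26 intestine libraries, computed on value + 2 and ordered by paralog number; squares are replicate 3 of low enniatin B, triangles are controls 5 and 6. In both controls hoxc6ba and hoxa7aa lie between -4.05 and -5.25 and hoxa2ab at 1.39 and 1.59, while replicate 3 of low enniatin B has hoxa7aa at 1.21 and hoxb8ab at -4.08.

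The toxins were compared with each other at the same dose label, in 2 pairs per tissue. Beauvericin carries N-methylphenylalanine residues where enniatin B carries N-methylvaline residues, and equal amounts under one dose label are not given. No member differed between them in either tissue by limma, edgeR or DESeq2, and 0 members had an unadjusted p under 0.05 (1.53 and 3.04% of all genes in the low and high pair in intestine, 3.99 and 10.3% in liver). The share of all genes called by limma was 0.0% for the low pair in intestine, 0.00391% for the high pair in intestine and 0.0% for both pairs in liver. The p adjusted over the 2 pairs of a member lay between 0.182 and 0.989 over 16 tests. For hoxa7aa in intestine the log2 difference, enniatin B minus beauvericin, was -0.24 (95% interval -1.43 to 0.961) at the low label and -0.31 (-1.46 to 0.828) at the high label. For hoxc6ba it was -0.67 (-2.17 to 0.829) at the low label and 0.41 (-1.02 to 1.84) at the high label. The narrowest intervals belonged to hxb7a, at -0.394 to 0.399 and -0.19 to 0.566. For each of the other 4 members at least 1 interval in intestine extends past a 2-fold difference. Without replicate 3 of low enniatin B the low-label difference of hoxc6ba was -0.12 and that of hoxb8ab 0.04, against -0.65 with it.

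High against low dose gave no call either. The share of all genes called by limma was 0.0% for both toxins in both tissues, and 0 members had an unadjusted p under 0.05. At that mark stood 1.73 and 1.82% of all genes for enniatin B and beauvericin in intestine, and 3.06 and 3.8% in liver. In intestine the largest difference was that of hoxb8ab between high and low enniatin B, at 1.07 ± 0.58 (adjusted p = 1, limma), and it was 0.38 ± 0.43 without replicate 3 of the low group. For beauvericin the intestinal differences, high minus low, ran from -0.23 for hoxc6ba to 0.04 for hoxb7ab.

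In liver hxb7a was the member with the clearest values. It had 18.7, 17.9, 61.1, 16.6, 32 and 42 normalized counts after low enniatin B and 29.7, 43.8, 34.4, 37.1, 23 and 34.9 after high enniatin B. After low beauvericin it had 16.9, 42, 26.6, 29.5 and 21.1, and after high beauvericin 43.2, 32.3, 25.5, 18.5, 28.5 and 17.4. The controls had 12.1, 18.6, 13.7, 13, 10.7 and 16.2. Every high enniatin B library lay above every control, which 0.0517% of genes tested in liver did. In the other groups 4 of 6, 4 of 5 and 4 of 6 libraries lay above every control, so hxb7a overlapped its controls there. The share of genes with all libraries above was 0.0517, 0.223 and 0.318% in those groups, a mark that hxb7a did not reach. The share with 4 libraries above was not computed. Over all exposures 18 of 23 libraries lay above the highest control and 23 of 23 above the control median of 13.4. The shares of all genes that do so were not computed.

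These are few reads, 6 to 14 per control library and 10 to 51 per exposed library. The log2 change of hxb7a in liver was 0.92 ± 0.30 after low enniatin B (adjusted p = 1, limma), 1.15 ± 0.30 after high enniatin B (1), 0.82 ± 0.32 after low beauvericin (0.505) and 0.84 ± 0.30 after high beauvericin (0.406). None passed over 25157 genes, where limma called 0.0, 0.0, 0.127 and 0.0% of genes in that order, and edgeR and DESeq2 called it in none. In each of the 4 comparisons hxb7a had an unadjusted p under 0.05 and the other 2 tested members did not; 3.64, 2.77, 8.27 and 9.44% of all genes passed that mark in the same order. The 5 measured of 11 red cell markers summed to medians of 2791, 3753, 2491 and 4073 in the exposed groups and 5805 in control. The ranges overlapped, at 1456 to 4383, 1446 to 6719, 1788 to 2848 and 1743 to 6021 in the exposed groups and 2689 to 8959 in control. Most of this sum was alas2, with a median of 2692 over the liver libraries, where the other measured red cell markers had medians of 71.8 to 221.2. The 2 measured smooth muscle markers summed to medians of 393, 435.5, 491.5 and 447 in the exposed groups and 292 in control. The 3 measured of 11 exocrine pancreas markers summed to medians of 39.9, 67.1, 39.6 and 86.4 in the exposed groups and 30.6 in control. In the smooth muscle and exocrine pancreas sums, too, every exposed group overlapped control. The part of these markers in the hxb7a values was not tested.

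**Figure D4:**
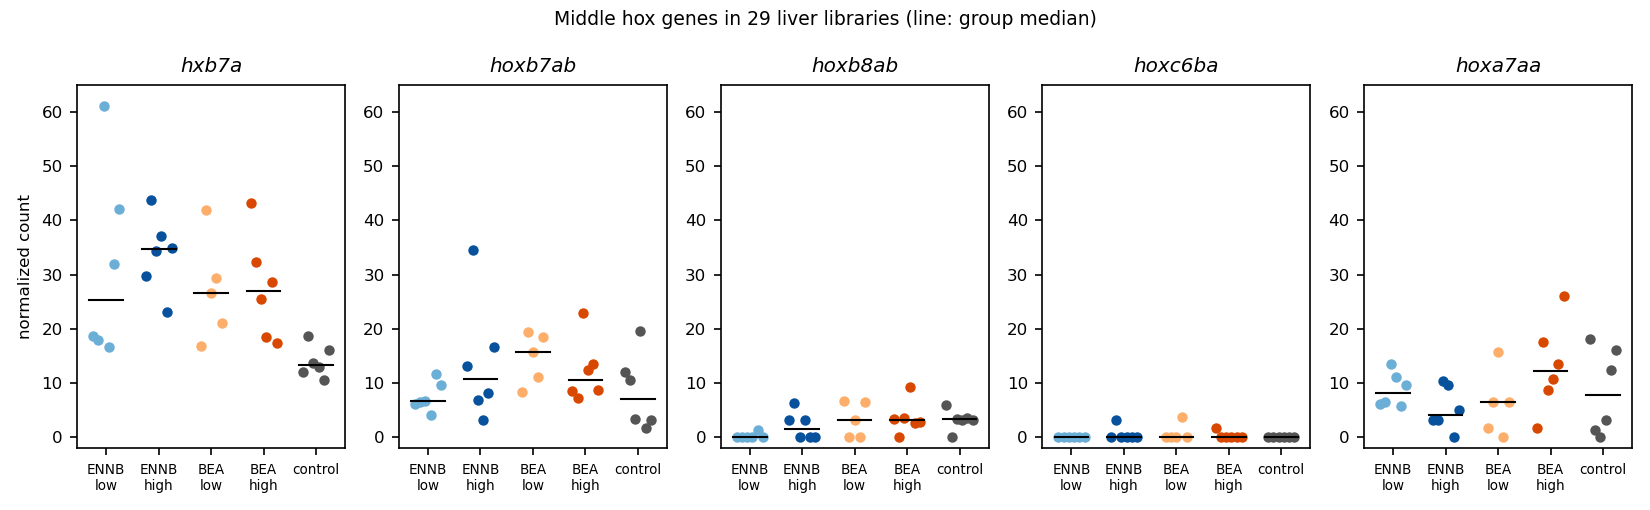
Normalized count (linear axis) of the 5 members in each of 29 liver libraries by treatment; lines are group medians. hxb7a lies at 10.7 to 18.6 in control and at 23 to 43.8 after high enniatin B, hoxc6ba is at 0 in 26 libraries, and hoxb7ab and hoxa7aa overlap between groups.

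The remaining members showed no such order in liver. hoxb7ab had 7.50 ± 2.69 after low enniatin B, 13.8 ± 11.2 after high enniatin B, 14.6 ± 4.73 after low beauvericin, 12.2 ± 5.75 after high beauvericin and 8.46 ± 6.91 in control (mean normalized count ± SD), and its log2 changes ran from 0.09 ± 0.45 after low enniatin B to 0.89 ± 0.47 after low beauvericin. hoxa7aa had 8.82 ± 3.15, 5.23 ± 4.03, 6.09 ± 6.09 and 13.1 ± 8.30 in the exposed groups in the same order and 8.55 ± 7.97 in control, with changes from -0.29 ± 0.60 after high enniatin B to 0.76 ± 0.60 after high beauvericin. Both SDs in control are close to the mean, and 1 read more or less moves a liver value by 0.848 to 1.84.

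Whether the response differed between the tissues was tested directly, as the change in intestine minus the change in liver. For hoxa7aa this difference was 1.81 ± 0.82 after low enniatin B (adjusted p = 0.449, limma), 2.50 ± 0.82 after high enniatin B (0.442), 2.79 ± 0.86 after low beauvericin (0.192) and 1.76 ± 0.82 after high beauvericin (0.403). For hxb7a it was negative in all 4, from -0.59 ± 0.34 to -0.42 ± 0.35 (adjusted p = 0.593 to 0.642). No member passed by limma, edgeR or DESeq2; the share of all genes called by limma was 0.0, 0.0, 0.0204 and 0.0%. At an unadjusted p under 0.05 hoxa7aa passed in limma in all 4 comparisons and hxb7a and hoxb7ab in none, where 10.3, 9.43, 13.6 and 11.7% of all genes did. For low beauvericin hoxa7aa was called by limma without intestine control 4, the highest intestine control for this gene (3.09, adjusted p = 0.049), where 1.73% of all genes were called. Without controls 5 and 6 the hoxa7aa difference was 0.61 ± 0.71 after low enniatin B, 1.30 ± 0.71 after high enniatin B, 1.59 ± 0.74 after low beauvericin and 0.56 ± 0.71 after high beauvericin (adjusted p = 0.6007 to 0.9989, limma).

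Within the intestine, 4 of the 5 members varied together from library to library. Correlations were computed on log2(value + 2) with group means removed over 27 libraries, without controls 5 and 6, which form a cluster of their own. P-values come from 100000 permutations within groups (two-sided) and are adjusted over 10 pairs. All 6 pairs among hxb7a, hoxb7ab, hoxb8ab and hoxc6ba passed, with Pearson's r of 0.388 to 0.913 (adjusted permutation p = 0.0003 to 0.00073) and Spearman's rho of 0.5 to 0.764 (adjusted permutation p = 0.003 to 0.0083). The highest r was that of hoxb8ab with hoxc6ba, 0.913, with rho = 0.764, and it rested in part on replicate 3 of low enniatin B, in which both are low. Without that library the pair had r = 0.654 and rho = 0.586, and hxb7a with hoxc6ba had the highest, r = 0.804 and rho = 0.733. The first pair had r = 0.688 without the 2 libraries farthest from the median of hoxb8ab. The neighbours hoxb7ab and hoxb8ab had r = 0.7, and the duplicates hxb7a and hoxb7ab r = 0.576. Leaving out the 2 libraries farthest from the median of 1 member of each pair gave r of 0.401 to 0.688 over the 6 pairs. That member was the first in the order hxb7a, hoxb7ab, hoxb8ab and hoxc6ba, so the pairs of hxb7a kept replicate 3 of low enniatin B. How many pairs of other genes would pass was not computed, so such correlation is not shown to be particular to these genes. With group means kept, mturn, which is no hox gene, had rho = 0.902 with hxb7a over the 27 libraries.

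hoxa7aa did not follow the other 4. Its 4 pairs had r of -0.51 to -0.171 and rho of -0.322 to -0.154, and none passed (adjusted permutation p = 0.11 to 0.44 for r and 0.23 to 0.49 for rho). Without replicate 3 of low enniatin B, where hoxa7aa is high and hoxb7ab, hoxb8ab and hoxc6ba are low, r lay between -0.159 and 0.016. All of these libraries come from tissue pieces whose cell makeup also varies, and marker levels were not part of the model.

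**Figure D5:**
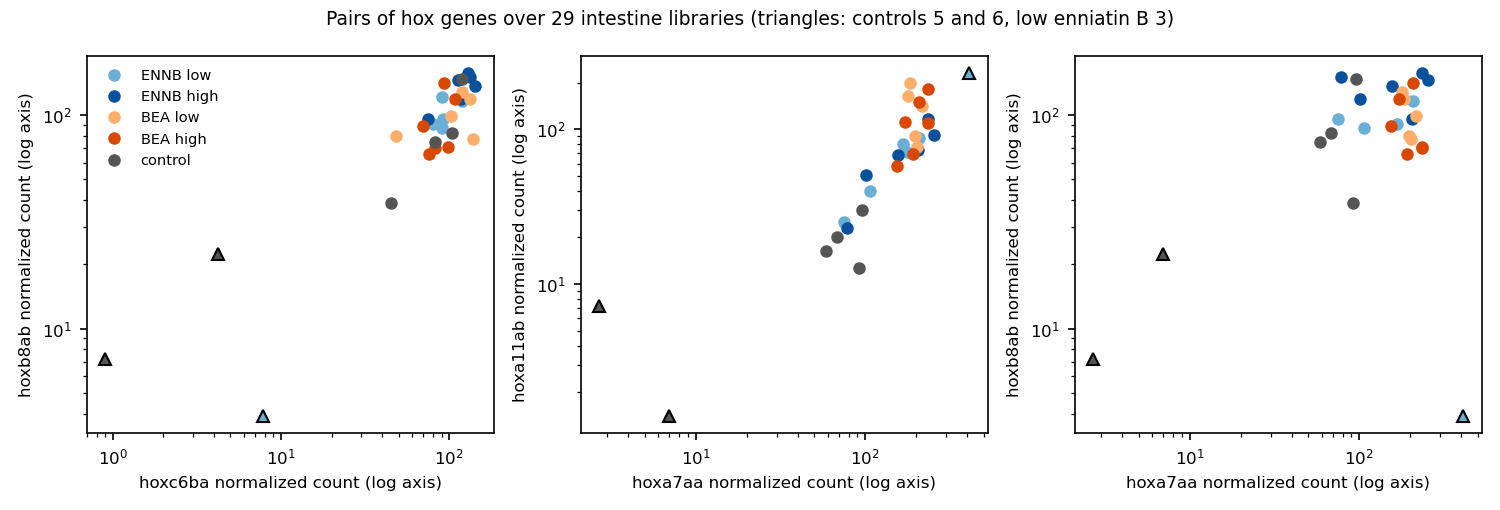
Normalized counts (log axes) of pairs of hox genes over 29 intestine libraries, coloured by treatment; triangles are controls 5 and 6 and replicate 3 of low enniatin B. hoxc6ba and hoxb8ab are low together in the 3 triangles, hoxa7aa and hoxa11ab lie along one band from control 6 to replicate 3 of low enniatin B (412 and 232), and that library parts hoxa7aa from hoxb8ab (3.89).

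Ranking 7404 named genes by Spearman correlation with each member over the 29 intestine libraries gave 3 most alike genes for each. For hoxa7aa the first was hoxa11ab, a tail-side gene of the same cluster, with rho = 0.868 over 29 libraries and 0.837 without controls 5 and 6. It was followed by the growth factor gene fgf20b (0.79) and the fibrinogen-like gene fgl1 (0.782), and the same 3 led without those controls. For hoxc6ba they were aldh1a2 (0.818), which makes retinoic acid, the hox cofactor gene meis1b (0.807) and hxb7a (0.802). For hxb7a they were hoxc6ba (0.802), mturn (0.8), a gene known from neural development in frog, and vipb (0.796), which encodes a neuropeptide of the gut. For hoxb7ab they were hoxc5ba (0.789), the reticulon gene rtn1a (0.769) and si:ch211-225h24.2 (0.763). For hoxb8ab they were the purine enzyme gene xdh (0.829), the retinoid receptor gene rxrgb (0.826) and ssrp1b (0.822), a histone chaperone subunit. Without controls 5 and 6 the leading gene was mturn (0.902) for hxb7a, fam184aa (0.817) for hoxb7ab, the ephrin receptor gene ephb6 (0.821) for hoxb8ab and rbpms2a (0.821), an RNA-binding protein of smooth muscle, for hoxc6ba. These rankings describe the libraries and carry no test.

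The next genes after hoxa7aa in the assembly also had higher medians in exposed than in control intestine. Values below follow the order low and high enniatin B, low and high beauvericin. LOC106588846, the protein-coding gene after hoxa7aa, was at 0 in controls 5 and 6, with group medians of 444, 482, 570 and 588 in exposed intestine and 117 in control. hoxa10ab was at 0 in the same controls, with medians of 68.0, 85.1, 127 and 98.5 in exposed groups and 44.9 in control. hoxa11ab had medians of 75.4, 70.5, 142 and 110.6 in exposed groups and 14.5 in control, and was the only hox gene of the 16 that limma called against control. Its log2 change was 3.25 ± 0.51 after low beauvericin (adjusted p = 0.0218) and 2.99 ± 0.49 after high beauvericin (0.0387), and with controls 1 to 4 it was 2.62 ± 0.48 (0.0954) and 2.36 ± 0.46 (0.227). LOC106588851, a long noncoding RNA gene after hoxa11ab, was called after low beauvericin (3.14 ± 0.54, adjusted p = 0.0245, limma). With controls 1 to 4 this change was 2.79 ± 0.59 (adjusted p = 0.255, limma). Unlike hoxa7aa, it had liver medians of 65.1 to 114.4 over the groups. Of the anterior hoxa genes, hoxa2ab had log2 changes of -0.55 to -0.41 and hoxa3ab of 0.19 to 0.43, none of them called. hoxa2aa and hoxa3a are counted among the anterior hox genes below. hoxc5ba, beside hoxc6ba, had changes of 1.05 to 1.36 with all controls and of -0.06 to 0.25 with controls 1 to 4.

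Of the 5 anterior hox genes 1 was higher and 4 were lower on average in each exposure in intestine, with medians of -0.37, -0.08, -0.41 and -0.49, and with controls 1 to 4 the medians were -0.02, 0.24, 0.04 and 0.01. Of the 4 posterior genes 3 or 4 were higher, with medians of 1.68, 1.63, 2.05 and 1.92, and with controls 1 to 4 all 4 were higher, with medians of 0.72, 0.68, 1.09 and 0.96. For the 5 members the medians with controls 1 to 4 were -0.31, 0.49, 0.31 and 0.19, overlapping those of the anterior genes. Leaving out replicate 3 of low enniatin B too, the first of the member medians was 0.27. Differences between these groups of genes were not tested. hoxa5a, a middle gene outside the 5 members, averaged 128.1, 145.7, 115.6 and 131.5 normalized counts in the exposed groups. Its mean was 157.4 in control and 137.8 in controls 1 to 4.

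Of the hox partners and regulators considered, 13 had values, and none was called against control in intestine. They include pbx2, pbx4, meis1b, meis2a and pknox1.1, which encode homeodomain cofactors of hox proteins, cdx1b, which activates hox genes in embryos, and subunits of Polycomb complexes, which silence them. Between 4 and 7 of the 13 were higher than in control, with medians of -0.05, 0.03, -0.02 and -0.22. cdx1b had the largest estimates, from 2.80 ± 1.31 after low beauvericin to 3.001 ± 1.25 after high beauvericin (adjusted p = 0.253 and 0.27, limma), with 0 and 19.8 normalized counts in controls 5 and 6. With controls 1 to 4 the sign turned, to between -0.28 ± 0.13 after low beauvericin and -0.08 ± 0.13 after high beauvericin, none called. Between the tissues 12 could be tested. aldh1a2, meis2a, bmi1a, a Polycomb subunit gene, and kdm6ba, a demethylase gene that counters Polycomb, were called higher in intestine than in liver in all 5 treatments, and pknox1.1 was called lower in all 5. Such calls were the rule: by treatment, 35.2 to 37% of all genes were called higher in intestine and 66.0 to 69.5% in either direction.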

How the data were processed

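Polyadenylated RNA was sequenced as 150 bp paired reads on an Illumina NovaSeq, per the labels' protocols. The submitters' processing notes name Trim Galore 0.4.2, HISAT2, featureCounts and DESeq2 1.18.1; the genome build is not given in the sources used here. The deposited signal is a normalized count: reads divided by a library factor. Multiplied back, 99.9999% of values lay within 0.1 read of a whole number. Names came from Ssal_v3.1 (24184 of 26239 GeneIDs matched). The lowest mean value in the file is 21.1, so weakly expressed genes are not analysed here.

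The main test was limma 3.58.1 (R 4.3.3; trend and robust moderation) on log2 of value plus 2, for genes that reached 10 in 5 or more of a tissue's libraries (of each tissue, for tissue contrasts), with all libraries of a tissue in 1 fit, or all 58, and Benjamini-Hochberg adjustment over all genes. edgeR 4.0.16, DESeq2 1.42.0 and voom on recovered reads, other pseudocounts, no filter, TMM, a replicate block and left-out libraries were alternatives. The test was checked on simulated counts. Correlations used NumPy 2.4.6. The members, lists and named genes were chosen with earlier results of these data known: every hox gene in the file was counted, and for each member the 3 most alike genes were named. No sequences or coordinates are printed.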

Additional observations from a re-analysis of the deposited data

Results flagged for a closer look

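In 6 of 48 groups of 5 or 6 libraries, 1 library stood apart from the rest of its group by Dixon's ratio of the gap to the range. For normally spread values chance alone marks about 1 in 20 groups. That rate does not hold where a single library has reads and the rest are at 0, because the ratio is then always 1. The count of 6 can therefore not be set against it. In intestine both are replicate 3 of low enniatin B: hoxb8ab stood at 3.89 normalized counts there, with 87.5 in the nearest library of the group, and hoxc6ba at 7.77, with 80.4 in the nearest. In liver the 4 are single libraries with 1 or 2 reads in groups otherwise at 0: hoxb8ab at 1.45 in replicate 5 of low enniatin B, and hoxc6ba at 3.13 in replicate 2 of high enniatin B, at 3.68 in replicate 4 of low beauvericin and at 1.7 in replicate 1 of high beauvericin.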

How the results depend on the processing

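Counts of called members kept to within 1.5 times of those given, except as follows. With no filter on low values, 5 of 5 members were called higher in intestine than in liver in each of the 5 treatments, as were 37 to 38.8% of all genes. For hoxb7ab, hoxb8ab, hoxc6ba and hoxa7aa, whose liver means lie below the lowest mean in the file, that direction was largely set by their presence in it. Against control in intestine, DESeq2 called 1 member in each exposure and edgeR 1 after low enniatin B and 1 after high beauvericin. With single libraries left out the count ranged over 0 to 1 after low enniatin B, 0 to 3 after high enniatin B, 0 to 1 after low beauvericin and 0 to 1 after high beauvericin, and over 0 to 1 for the tissue difference of the low beauvericin response; controls 4 and 1 gave the higher counts. Signs turned in small estimates. Without controls 5 and 6, hoxb7ab in intestine was -0.40 after low enniatin B, -0.10 after low beauvericin and -0.058 after high beauvericin, and leaving out replicate 3 of low enniatin B too -0.20, -0.10 and -0.058; hoxb8ab and hoxc6ba after low enniatin B were -0.31 and -0.37. Leaving out single libraries, hoxb7ab after low enniatin B ranged over -0.044 to 0.58 in intestine and -0.15 to 0.36 in liver, and hoxa7aa in liver over -0.68 to 0.031 after high enniatin B and -0.66 to 0.14 after low beauvericin. For hoxb7ab in liver after low enniatin B, DESeq2 gave -0.18, edgeR -0.19 and a pseudocount of 8 -0.00094. For these the cause was not tested.

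Replicate numbers are shared between groups but do not pair the libraries by the labels. Within intestine 15 of 56 same-numbered pairs of libraries, and within liver 7 of 56, had a correlation of deviations over 0.1. Of pairs with different numbers, 56 of 280 in intestine and 48 of 280 in liver did. Between tissues the correlation was over 0.1 for 27 of 29 pairs of the same treatment and number (0.0387 to 0.294), a hint from the data and not the design. It was over 0.1 for 4 of 140 pairs of the same treatment and different number. With the replicate block, 3 members were called between tissues in each treatment and 0 in every other comparison, as without it.

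In liver hoxc6ba had 6 reads and hoxb8ab 50 over 29 libraries, so a fall or a small change of these genes could not be resolved at this depth. How large a rise would have been called was not computed.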
